A study of Mus musculus with 18 samples.

Results

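The genes described here encode 9 adhesion molecules of B cells, chosen by symbol from a table of 21761 genes. They are the integrin chains Itga4, Itga6, Itgal, Itgb1, Itgb2 and Itgb7, the integrin ligand Icam1, the selectin ligand Selplg and the hyaluronan receptor Cd44. All 9 were above the low-value filter, together with 11522 genes in all, and their level was followed over 3 cell types and 2 genotypes.

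Integrins are cell surface receptors made of 1 alpha and 1 beta chain. The alpha 4 chain pairs with beta 1 (VLA-4), which binds VCAM-1 and fibronectin, or with beta 7, which binds the gut vessel addressin MAdCAM-1, and the alpha L chain pairs with beta 2 (LFA-1), which binds ICAM-1. PSGL-1 (Selplg) is a mucin that selectins bind, and CD44 binds hyaluronan in the matrix. These receptors are known to guide B cells into follicles and germinal centers and to hold plasma cells in their bone marrow niches.

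RNA-seq libraries were prepared from 5000 sorted cells each, with 3 libraries in each of 6 groups. By sex, 10 libraries were female and 8 male, with females the majority in each nB and GCB group and males in each BMPC group. Naive B cells (nB, B220+ Fas- GL7-) came from lymph nodes, and germinal center B cells that bound phycoerythrin (GCB, B220+ Fas+ GL7+ PE+) and bone marrow plasma cells (BMPC, CD138+) were taken 30 days after immunization with phycoerythrin. All mice were homozygous for floxed Dnmt3a and Dnmt3b (fl/fl) on a mixed B6;129S4 background. Dnmt3-deficient mice carried 1 Cre allele in addition, and Dnmt3-sufficient mice had no Cre. Cre was active in the B lineage, and it removed only catalytic exons, so that total Dnmt3a and Dnmt3b expression does not check the genotype. Each GCB library pooled mice. Mice were young adults when experiments began, by the study's methods. The nB and GCB libraries shared the tissue, and GCB and BMPC the time after immunization. The study took nB from unimmunized mice, so cell type and immunization cannot be told apart in comparisons with nB. Cell type and tissue cannot be told apart in comparisons with BMPC.

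The nB libraries held 6692516 to 8987922 reads. GCB libraries had a like depth of 7644544 to 8903872 reads, and BMPC libraries were shallower, at 1355231 to 3803197. Markers followed the labelled cell types: 6 mature B markers summed to 2349 to 3279 FPKM in nB and 6.42 to 61.6 in BMPC, 6 germinal center markers to 726 to 949 in GCB, and 7 plasma cell markers to 18915 to 51504 in BMPC. The BMPC libraries also held markers of other marrow cells. The 6 early B markers summed to 308 to 630 FPKM, of which Dntt alone had means of 413 in Dnmt3-sufficient and 357 in Dnmt3-deficient BMPC, whereas Rag1 was at 0.779 and 0.353. The 9 neutrophil markers summed to 21.3 to 595 FPKM. Of these, S100a8 had means of 105 in Dnmt3-sufficient and 161 in Dnmt3-deficient BMPC, and Elane of 29.5 and 0. The 4 erythroid markers in the table summed to 1160 to 2194 FPKM in Dnmt3-sufficient and 149 to 797 in Dnmt3-deficient BMPC, and 6 macrophage markers to 40.5 to 87.7 and 103 to 168. Cd68 carried most of the macrophage sum, at means of 57.6 and 134 FPKM, and C1qb was at 4.01 and 0. The part of these markers in the BMPC results was not tested. T cell markers, 6 in number, summed to 58.8 to 218 FPKM over all libraries, although the sort removed cells stained for T cell and myeloid surface proteins. In GCB nearly all of that sum was Lck (means of 98.6 and 103 FPKM), and in BMPC it was mostly Cd3g (77.4 and 84.0) and Cd3d (36.5 and 47.4), with Cd4 at 0 and 0.0368. The erythroid markers were also higher in Dnmt3-deficient nB (22.5 to 218 FPKM) than in Dnmt3-sufficient nB (0.468 to 1.42).

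FPKM is divided by the summed exon length of a gene, which was 12895 bases for Itga4 and 2604 to 6774 for the other members. Ranks between genes depend on that length. By FPKM, Itgb2 was the highest of the 9 genes in nB (122 ± 31.7, SD, n = 6 over both genotypes) and in GCB (122 ± 23.8). Itga6 was the lowest in each cell type (1.95 ± 1.68 in nB, 0.794 ± 0.456 in GCB and 0.595 ± 1.40 in BMPC). In nB, Itgb7 (42.1 ± 14.5), Selplg (41.9 ± 9.13) and Itgal (35.7 ± 14.7) followed Itgb2 and did not differ among themselves beyond their spread. Icam1 (23.3 ± 10.7), Itga4 (20.2 ± 5.60) and Cd44 (12.9 ± 6.07) came next, also overlapping, and Itgb1 was at 6.07 ± 1.94. In GCB the order was Itgb2, Icam1 (34.9 ± 4.46), Cd44 (25.9 ± 3.23), Itgal (20.4 ± 4.08) and Itgb1 (11.6 ± 3.56), and then Itga4 (3.05 ± 1.13), Itgb7 (2.37 ± 1.37) and Selplg (2.21 ± 1.69), which overlapped each other. In BMPC, Selplg (70.6 ± 22.8) and Itgb2 (62.1 ± 28.5) were highest and overlapped, Cd44 was at 44.5 ± 11.01, Itgb1 at 21.7 ± 15.3 and Itgal at 20.1 ± 14.4. Icam1 (9.32 ± 9.35), Itgb7 (9.25 ± 10.2) and Itga4 (9.06 ± 3.13) were alike in BMPC in mean but not in spread.

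**Figure D1:**
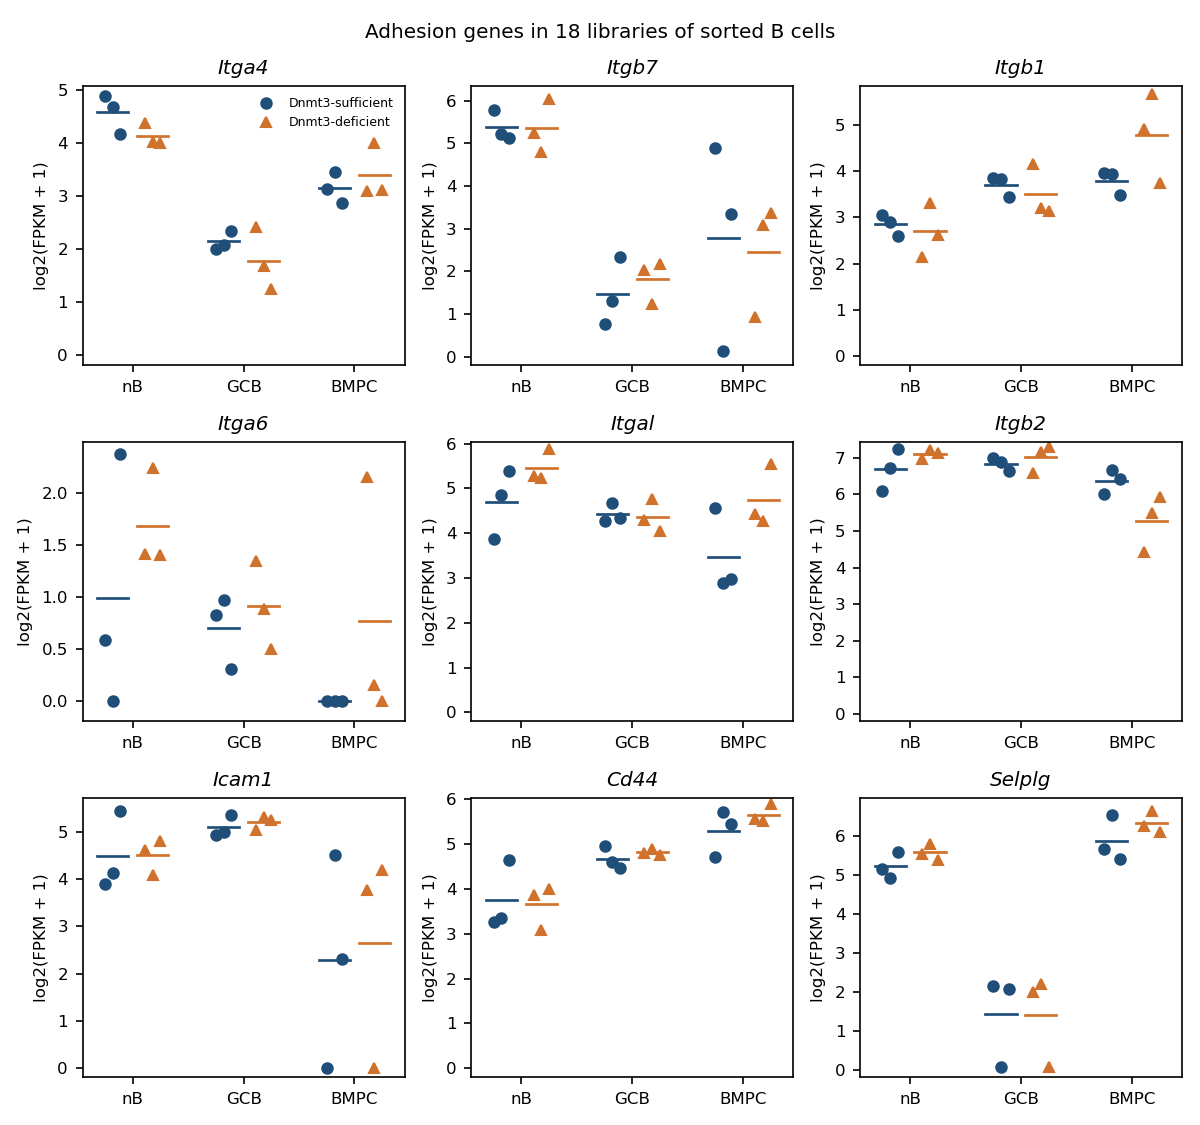
Level of the 9 adhesion genes in each of 18 libraries, as log2(FPKM + 1), by cell type on the horizontal axis. Blue circles are Dnmt3-sufficient and orange triangles Dnmt3-deficient libraries, and lines are group means (n = 3). Itga4, Itgb7 and Selplg sit lower in all GCB than in all nB libraries, whereas Itgb7 and Icam1 scatter widely in BMPC.

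To ask which adhesion genes differed between GCB and nB, each genotype was compared separately with limma on log2(FPKM + 1). To pass, a gene needed a log2 change of 1 or more in size together with an adjusted p no higher than 0.05. In Dnmt3-sufficient cells 3 of 9 genes passed, 3 lower and 0 higher in GCB, where 14.2% of all genes tested passed (832 higher, 799 lower). In Dnmt3-deficient cells 3 of 9 passed, again 3 lower, against 12.9% of all genes (727 higher, 762 lower). Both counts came from Itga4, Itgb7 and Selplg. Over the 9 genes the median log2 difference was -0.28 in Dnmt3-sufficient cells, beside -0.11 over all genes. For Dnmt3-deficient cells it was -0.77, beside -0.13. In bulk libraries, fewer cells that express a gene and less RNA per cell cannot be told apart.

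**Figure D2:**
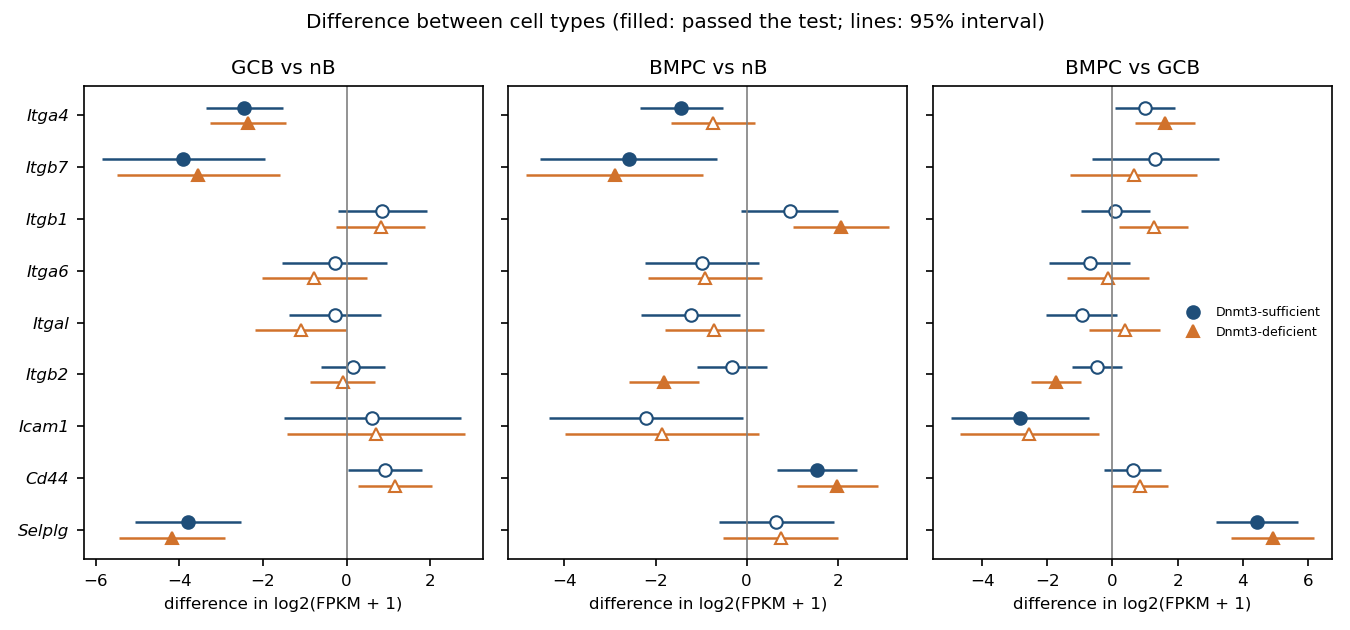
Difference between cell types for each gene on the log2(FPKM + 1) scale, with 95% intervals from the limma fit. Filled symbols passed the test and open symbols did not. Itga4, Itgb7 and Selplg are filled on the left of 0 for both genotypes in GCB against nB, and Cd44 is filled on the right of 0 for both in BMPC against nB.

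Itga4 (chr2:79095583-79173280, plus strand, mm9) encodes the alpha 4 chain. Its level in Dnmt3-sufficient cells was 28.8, 24.8 and 17.0 FPKM in nB, 3.005, 3.24 and 4.10 in GCB, followed by 7.80, 9.95 and 6.35 in BMPC. In Dnmt3-deficient cells it was 19.9, 15.4 and 15.0 in nB, 4.37, 2.21 and 1.36 in GCB, followed by 7.55, 15.0 and 7.70 in BMPC. All GCB libraries were below all BMPC libraries, and nB and BMPC met only in 1 Dnmt3-deficient plasma cell library at about the lowest nB level. Against nB, Itga4 fell by 2.44 ± 0.43 (SE) on the log2 scale in Dnmt3-sufficient GCB (adjusted p = 0.000816) and by 2.36 ± 0.43 in Dnmt3-deficient GCB (adjusted p = 0.00122). In BMPC it fell by 1.43 ± 0.43 in Dnmt3-sufficient cells (adjusted p = 0.0156), and the difference in Dnmt3-deficient cells was -0.73 ± 0.43 (adjusted p = 0.192). The test of the difference between the genotypes gave 0.70 ± 0.61 (adjusted p = 0.704). From GCB to BMPC the difference was 1.01 ± 0.43 in Dnmt3-sufficient cells (adjusted p = 0.0904), and Itga4 rose by 1.62 ± 0.43 in Dnmt3-deficient cells (adjusted p = 0.00874). The call in Dnmt3-sufficient BMPC against nB was lost without nB Dnmt3-sufficient replicate 1 (-1.28, adjusted p = 0.0618) and with quality weights (-1.48, adjusted p = 0.0836), and that in Dnmt3-deficient BMPC against GCB with quality weights (adjusted p = 0.0787) and with a fit of only the compared groups (adjusted p = 0.0842).

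Itgb7 (chr15:102046426-102062366, minus strand, mm9) encodes the beta 7 chain, the gut-homing partner of alpha 4. Dnmt3-sufficient libraries held 54.3, 35.98 and 34.1 FPKM in nB, 0.714, 1.47 and 4.06 in GCB, followed by 28.4, 0.0983 and 9.17 in BMPC. Dnmt3-deficient libraries held 36.7, 26.6 and 65.1 FPKM in nB, 3.10, 1.34 and 3.52 in GCB, followed by 0.916, 7.45 and 9.41 in BMPC. The nB and GCB libraries did not overlap, and the BMPC libraries ranged from below the lowest GCB library to above the lowest nB library. The lowest BMPC values rested on 1 and 4 reads. Itgb7 fell by 3.90 ± 0.92 on the log2 scale in Dnmt3-sufficient GCB (adjusted p = 0.00719) and fell by 3.54 ± 0.92 in Dnmt3-deficient GCB (adjusted p = 0.0149). In BMPC against nB it fell by 2.59 ± 0.92 in Dnmt3-sufficient (adjusted p = 0.0344) and fell by 2.89 ± 0.92 in Dnmt3-deficient cells (adjusted p = 0.020). For Dnmt3-sufficient BMPC the change without replicate 2, the library with 1 read, was -1.26 (adjusted p = 0.189). In all, 8 of 26 alternatives lost that call, among them leaving out any nB Dnmt3-sufficient library (adjusted p = 0.0997, 0.0677 and 0.0637 without replicates 1, 2 and 3). Without the library of 1 read, Itgb7 was also higher in Dnmt3-sufficient BMPC than in GCB (2.64, adjusted p = 0.0133, against 1.31, adjusted p = 0.303, with it). The Dnmt3-deficient call was lost without BMPC Dnmt3-deficient replicate 1 (-2.13, adjusted p = 0.0904) and without nB Dnmt3-deficient replicate 3 (-2.55, adjusted p = 0.0788), and the GCB call in Dnmt3-deficient cells without the same nB library (-3.20, adjusted p = 0.0698) or GCB Dnmt3-deficient replicate 2 (-3.25, adjusted p = 0.0606). A pseudocount of 0.1 lost both Dnmt3-deficient calls (adjusted p = 0.07 and 0.0805).

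Itgb1 (chr8:131209554-131257100, plus strand, mm9) encodes the beta 1 chain, the other partner of alpha 4. Levels in Dnmt3-sufficient cells were 7.31, 6.48 and 5.02 FPKM in nB, 13.5, 13.2 and 9.81 in GCB, followed by 14.5, 14.4 and 10.2 in BMPC. In Dnmt3-deficient cells they were 3.45, 8.97 and 5.17 in nB, 17.0, 8.25 and 7.85 in GCB, followed by 29.1, 49.9 and 12.4 in BMPC. Every BMPC library was above every nB library, while GCB overlapped both. In Dnmt3-deficient BMPC against nB, Itgb1 rose by 2.07 ± 0.50 on the log2 scale (adjusted p = 0.00384), and the Dnmt3-sufficient difference was 0.94 ± 0.50 (adjusted p = 0.147). These differences were not shown to differ between genotypes (1.13 ± 0.71, adjusted p = 0.558). Fitted to the compared groups alone, the Dnmt3-deficient change did not pass (2.07, adjusted p = 0.0620). In GCB against nB the differences were 0.85 ± 0.50 (adjusted p = 0.308) and 0.81 ± 0.50 (adjusted p = 0.361). In BMPC against GCB they were 0.09 ± 0.50 (adjusted p = 0.930) and 1.27 ± 0.50 (adjusted p = 0.0605). The latter passed with median of ratios scaling (1.56, adjusted p = 0.0283), without BMPC Dnmt3-deficient replicate 3 (1.78, adjusted p = 0.00938) and without GCB Dnmt3-deficient replicate 1 (1.597, adjusted p = 0.0443).

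Since both beta chains compete for alpha 4, their ratio was compared within libraries, from FPKM + 1. The mean log2 ratio of Itgb1 to Itgb7 was -2.59 ± 0.68 (SD, n = 6) in nB, 1.96 ± 0.81 in GCB and 1.66 ± 2.07 in BMPC. All nB libraries (-3.42 to -1.47) were below all GCB (0.97 to 3.08) and all BMPC libraries (-0.93 to 3.97). The highest BMPC ratios, 3.97 and 3.81, came from libraries where Itgb7 rested on 4 and 1 reads. Those of the other BMPC libraries lay between -0.93 and 2.59. The ratio was higher in GCB than in nB by 4.56 and in BMPC than in nB by 4.25 on the log2 scale (exact two-sided permutation test over 924 splits, p = 0.00216 for each, the smallest possible, adjusted p = 0.00649 over 6 ratio tests). GCB and BMPC differed by -0.31 (exact permutation p = 0.745, adjusted p = 0.861), with BMPC libraries spread over both sides of the GCB range. The ratio of Itga4 to Itgal, the alpha chains of VLA-4 and LFA-1, had a mean of -0.72 ± 1.02 in nB and of -2.43 ± 0.48 in GCB, and lay at -0.83 ± 1.09 for BMPC. It was lower in GCB than in nB by 1.71 on the log2 scale and higher in BMPC than in GCB by 1.602, and these passed the same exact permutation test (adjusted p = 0.00866 and 0.0162). Between BMPC and nB it differed by -0.11 (exact permutation, adjusted p = 0.861).

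**Figure D3:**
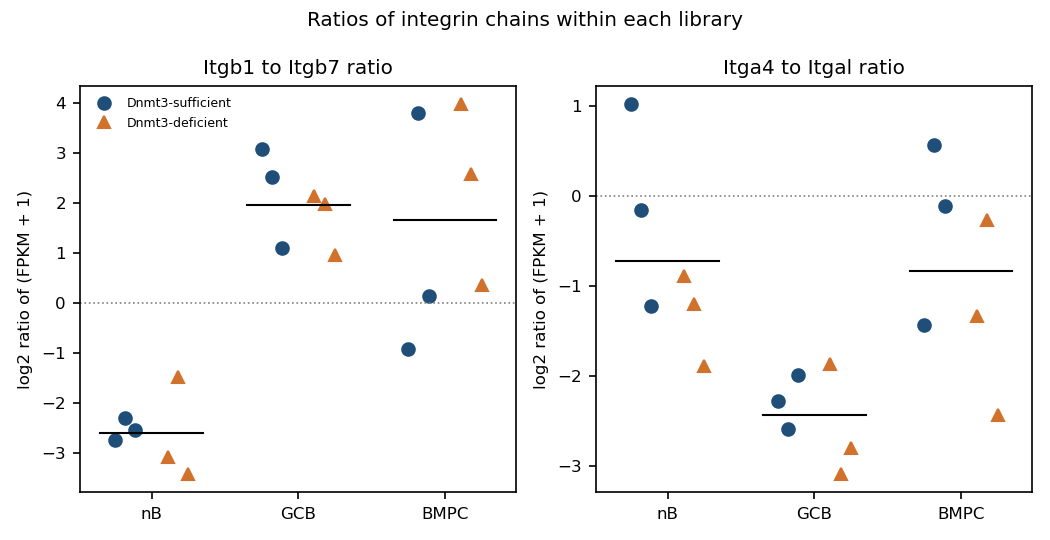
Log2 ratio of Itgb1 to Itgb7 (left) and of Itga4 to Itgal (right), from FPKM + 1, in each library by cell type. Blue circles are Dnmt3-sufficient and orange triangles Dnmt3-deficient libraries, and black lines are means of 6 libraries. The left panel shows nB between -3.42 and -1.47, below all other libraries.

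The 250 bases before the start of Itga4 and Itgb7, which fell together in GCB, and of Itgb1, which did not, are printed to show their CpG content and CACCC boxes. CACCC is the core recognised by Kruppel-like factors, a family known for its part in lymphocyte homing. The sequences are from RefSeq on GRCm38.p6, a later build than the mm9 of the expression table, run 5′ to 3′ on the strand of the gene, and have CACCC or its reverse complement GGGTG in capitals.
Itga4 (chr2:79255176-79255425, plus strand): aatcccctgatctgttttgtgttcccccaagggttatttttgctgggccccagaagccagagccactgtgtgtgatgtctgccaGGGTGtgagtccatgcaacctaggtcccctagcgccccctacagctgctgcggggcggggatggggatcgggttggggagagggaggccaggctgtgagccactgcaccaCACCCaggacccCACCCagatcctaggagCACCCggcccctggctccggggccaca
Itgb7 (chr15:102231936-102232185, minus strand): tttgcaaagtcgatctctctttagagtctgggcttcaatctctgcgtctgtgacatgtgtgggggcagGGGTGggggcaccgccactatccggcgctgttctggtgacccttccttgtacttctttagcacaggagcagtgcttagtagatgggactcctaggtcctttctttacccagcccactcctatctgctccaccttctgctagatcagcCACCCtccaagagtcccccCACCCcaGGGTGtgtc
Itgb1 (chr8:128685404-128685653, plus strand): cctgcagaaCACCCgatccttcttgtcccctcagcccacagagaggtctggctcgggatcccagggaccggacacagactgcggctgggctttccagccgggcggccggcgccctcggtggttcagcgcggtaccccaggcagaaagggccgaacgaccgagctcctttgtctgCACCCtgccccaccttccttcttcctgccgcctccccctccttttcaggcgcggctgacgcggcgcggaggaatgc
Itga4 and Itgb7 each held 4 matches, Itgb1 and Icam1 2 each and Cd44 0, where the median of 32851 promoter windows of this length was 1 and 52.0% held at least 1. A match is a description of these letters only, and the share of windows with 4 or more was not counted. GC content was 64% in Itga4, 56% in Itgb7 and 68% in Itgb1, beside a median of 52.4% over all windows. CpG dinucleotides numbered 6 in Itga4, 5 in Itgb7 and 5 in Cd44, near the median of 6 over all windows, but 15 in Icam1 and 21 in Itgb1. The promoters of Itga6, Itgal, Itgb2 and Selplg are not shown.

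Itga6 (chr2:71583673-71696473, plus strand, mm9) encodes the alpha 6 chain, which pairs with beta 1 to bind laminin. It was 0.501, 0 and 4.18 FPKM in Dnmt3-sufficient nB and 1.66, 3.72 and 1.64 in Dnmt3-deficient nB. GCB libraries were between 0.234 and 1.54 FPKM. Of the BMPC libraries, the 3 Dnmt3-sufficient had 0 reads, which allows up to 0.208 FPKM in the shallowest, and Dnmt3-deficient libraries had 3.46, 0.113 and 0 FPKM. Itga6 passed in no comparison, and levels of a few FPKM overlapped between nB and GCB. BMPC against nB gave -0.99 ± 0.59 (adjusted p = 0.2003) and -0.91 ± 0.59 (adjusted p = 0.234), and the latter passed without BMPC Dnmt3-deficient replicate 1, the library at 3.46 (-1.61, adjusted p = 0.030).

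Itgal (chr7:134439774-134478651, plus strand, mm9) encodes the alpha L chain of LFA-1. It was at 13.7, 27.7 and 40.9 FPKM in Dnmt3-sufficient nB and 37.6, 36.4 and 58.1 in Dnmt3-deficient nB. GCB libraries were between 15.4 and 26.2 FPKM, inside the nB range at its lower end. BMPC libraries held 22.7, 6.35 and 6.93 FPKM in Dnmt3-sufficient and 20.4, 18.2 and 45.9 in Dnmt3-deficient cells. No cell type comparison passed. In Dnmt3-sufficient BMPC against nB the difference was -1.23 ± 0.51 (adjusted p = 0.0688), which passed without BMPC Dnmt3-sufficient replicate 1 (-1.77, adjusted p = 0.0105), without nB Dnmt3-sufficient replicate 1 (-1.64, adjusted p = 0.0316), without BMPC Dnmt3-deficient replicate 3 (adjusted p = 0.0489) and with sex as a covariate (adjusted p = 0.0476). The difference from nB in Dnmt3-deficient GCB was -1.09 ± 0.51 (adjusted p = 0.198). That difference had an adjusted p of 0.0320 when only the groups compared were fitted, 0.00702 with a quality weight for each library and 0.0270 with voom on recovered reads.

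Itgb2 (chr10:76992997-77028453, plus strand, mm9) encodes the beta 2 chain shared by the leukocyte integrins. The nB libraries held 67.2, 104 and 150 FPKM in Dnmt3-sufficient and 125, 147 and 138 in Dnmt3-deficient cells, and the GCB libraries lay between 94.9 and 155. Dnmt3-sufficient BMPC held 62.7, 100.6 and 85.0 FPKM and Dnmt3-deficient BMPC 20.5, 43.9 and 59.6, so the genotypes did not overlap. Among Dnmt3-deficient cells, Itgb2 fell in BMPC by 1.82 ± 0.36 on the log2 scale against nB (adjusted p = 0.000931) and by 1.73 ± 0.36 against GCB (adjusted p = 0.00165). Neither passed with voom on the recovered reads (adjusted p = 0.104 and 0.127). In Dnmt3-sufficient BMPC the differences were -0.32 ± 0.36 (adjusted p = 0.512) and -0.47 ± 0.36 (adjusted p = 0.351). Across 18 libraries the levels of Itgb2 and Itgal on the log2 scale had a Pearson r of 0.20, although their chains form one receptor. For Itga4 the r was 0.74 with Itgb7 and -0.22 with Itgb1, all as descriptions of libraries that share cell type.

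Icam1 (chr9:20820404-20833241, plus strand, mm9) encodes the ligand of LFA-1, which activated B cells display to T cells. It was 13.9, 16.4 and 42.7 FPKM in Dnmt3-sufficient and 23.7, 16.1 and 27.0 in Dnmt3-deficient nB, and between 29.9 and 40.3 in all GCB libraries. BMPC libraries held 0, 21.9 and 3.98 FPKM in Dnmt3-sufficient and 12.6, 0 and 17.4 in Dnmt3-deficient cells. Libraries at 0 had no read, which allows up to 0.313 and 0.507 FPKM. Every BMPC library was below every GCB library. In Dnmt3-sufficient BMPC, Icam1 fell by 2.83 ± 1.005 on the log2 scale against GCB (adjusted p = 0.0431), and the Dnmt3-deficient difference was -2.55 ± 1.005 (adjusted p = 0.0598). The first call rested on its setting: 18 of 26 alternatives lost it. Over all 26 the adjusted p ran from 0.00635 to 0.201, and without BMPC Dnmt3-sufficient replicate 1 the change was -1.69 (adjusted p = 0.201). The Dnmt3-deficient difference passed on leaving out BMPC Dnmt3-deficient replicate 3 (-3.32, adjusted p = 0.0267) or replicate 1 (-3.11, adjusted p = 0.0408), or BMPC Dnmt3-sufficient replicate 1 or 2 (adjusted p = 0.0291 and 0.0295). Against nB the BMPC differences were -2.21 ± 1.005 (adjusted p = 0.0914) and -1.85 ± 1.005 (adjusted p = 0.154), and the former was -3.33 without BMPC Dnmt3-sufficient replicate 2 (adjusted p = 0.0131). The neutrophil markers summed to 549 and 595 FPKM in both libraries at 0 and to 546 in the Dnmt3-deficient library at 17.4, and their part was not tested.

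Selplg (chr5:114267807-114280510, minus strand, mm9) encodes PSGL-1. Its level was 34.5, 29.1 and 47.0 FPKM in Dnmt3-sufficient and 45.6, 54.5 and 41.0 in Dnmt3-deficient nB. In GCB it was 3.45, 0.0502 and 3.22 and then 2.95, 3.56 and 0.0435 FPKM, with 1 read in each of the lowest libraries. In BMPC it was 49.7, 91.9 and 41.1 FPKM in Dnmt3-sufficient and 75.0, 98.9 and 67.1 in Dnmt3-deficient cells. GCB was thus separate from both other cell types, and nB and BMPC overlapped. Against nB, Selplg fell by 3.78 ± 0.60 on the log2 scale in Dnmt3-sufficient GCB (adjusted p = 0.000289) and by 4.16 ± 0.60 in Dnmt3-deficient GCB (adjusted p = 0.00013). From GCB to BMPC it rose by 4.43 ± 0.60 (adjusted p = 3.82e-05) and 4.92 ± 0.60 (adjusted p = 1.22e-05). These 4 calls held in each of 26 alternatives, many of which left out a library outside the groups compared. BMPC against nB gave 0.65 ± 0.60 (adjusted p = 0.412) and 0.75 ± 0.60 (adjusted p = 0.334).

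Cd44 (chr2:102651298-102741822, minus strand, mm9) was at 8.60, 9.20 and 23.8 FPKM in Dnmt3-sufficient and 13.6, 7.47 and 15.0 in Dnmt3-deficient nB. GCB libraries held 29.7, 23.3 and 21.0 FPKM in Dnmt3-sufficient and 26.8, 28.5 and 25.9 in Dnmt3-deficient cells. BMPC libraries held 25.1, 51.2 and 42.7 FPKM and 46.2, 44.3 and 57.8. All BMPC libraries exceeded all nB libraries, and 1 nB library reached into the GCB range. In BMPC against nB, Cd44 rose by 1.54 ± 0.42 on the log2 scale in Dnmt3-sufficient (adjusted p = 0.00814) and by 2.00 ± 0.42 in Dnmt3-deficient cells (adjusted p = 0.00137). The former did not pass when only the compared groups were fitted (adjusted p = 0.0793). In GCB against nB the differences were 0.92 ± 0.42 (adjusted p = 0.167) and 1.16 ± 0.42 (adjusted p = 0.0782). The Dnmt3-deficient one passed with that narrower fit (adjusted p = 0.0269), with quality weights (adjusted p = 0.00515), with voom (adjusted p = 0.0213) and without nB Dnmt3-sufficient replicate 3 (adjusted p = 0.0479). The Dnmt3-sufficient one passed with quality weights (1.05, adjusted p = 0.00929) and without that same nB library, the one at 23.8 FPKM (1.36, adjusted p = 0.0438).

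Counted over the 9 genes, BMPC against nB gave 3 calls in Dnmt3-sufficient cells (Cd44 higher, Itga4 and Itgb7 lower), where 37.3% of all genes passed, 1122 higher and 3177 lower. In Dnmt3-deficient cells it gave 4 calls (Itgb1 and Cd44 higher, Itgb2 and Itgb7 lower), where 37.4% passed, 789 higher and 3522 lower. These shares of the 9 genes were close to the background. The median differences of the 9 genes were -0.99 and -0.73, beside -0.70 and -0.84 over all genes. BMPC against GCB gave 2 calls in Dnmt3-sufficient cells (Selplg higher, Icam1 lower) beside 27.6% of all genes, and 3 in Dnmt3-deficient cells (Itga4 and Selplg higher, Itgb2 lower) beside 32.3%. Their medians were 0.09 and 0.65 over the 9 genes and -0.56 and -0.73 over all genes. Spread between libraries was larger in BMPC, with a median SD over genes of 0.78 and 0.82 on the log2 scale, than in the other cell types. That median was 0.41 and 0.35 for nB, while GCB libraries had 0.27 and 0.30. A common spread was fitted, so p-values of BMPC comparisons are too small and those of GCB against nB too large for a typical gene.

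The comparison of genotypes asked whether loss of the de novo methyltransferases moved these genes within a cell type. None of the 9 passed in nB, where 0.0521% of all genes passed, in GCB, where 0% passed (0 genes, with 124 at an unadjusted p under 0.05), or in BMPC, where 3.98% passed. The BMPC share, 459 genes, rested on its setting: 0 genes passed with a fit of only the compared groups, 18 with quality weights, 262 with voom and 922 without BMPC Dnmt3-deficient replicate 1. The 9 genes had median log2 differences of 0.02, 0.10 and 0.38 in the same order, beside 0.00, 0 and -0.05 over all genes, and Itgb2 and Itgal in BMPC were the only ones with an unadjusted p under 0.05. With voom 0 of the 9 passed in each cell type too. In nB the log2 differences ran from -0.45 ± 0.43 for Itga4 (95% interval -1.37 to 0.47) to 0.76 ± 0.51 for Itgal (-0.33 to 1.84). In GCB they ran from -0.36 ± 0.43 for Itga4 (-1.28 to 0.56) to 0.34 ± 0.92 for Itgb7 (-1.61 to 2.28). A change by 1 on the log2 scale lay inside the interval of most genes, so these intervals do not show equal levels. In BMPC, Itgb2 was nearest to the threshold at -1.08 ± 0.36 (95% interval -1.85 to -0.32, unadjusted p = 0.00857 and adjusted p = 0.0944 by limma). It was lower in each Dnmt3-deficient library than in every Dnmt3-sufficient one. Itgal was at 1.27 ± 0.51 (0.18 to 2.36, adjusted p = 0.165) and Itgb1 at 0.98 ± 0.50 (-0.08 to 2.04, adjusted p = 0.291), and both overlapped between genotypes. Leaving out 1 library could make a call: Itgb2 passed without BMPC Dnmt3-deficient replicate 3 (-1.40, adjusted p = 0.0322) and Itgal without BMPC Dnmt3-sufficient replicate 1 (1.81, adjusted p = 0.0380).

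**Figure D4:**
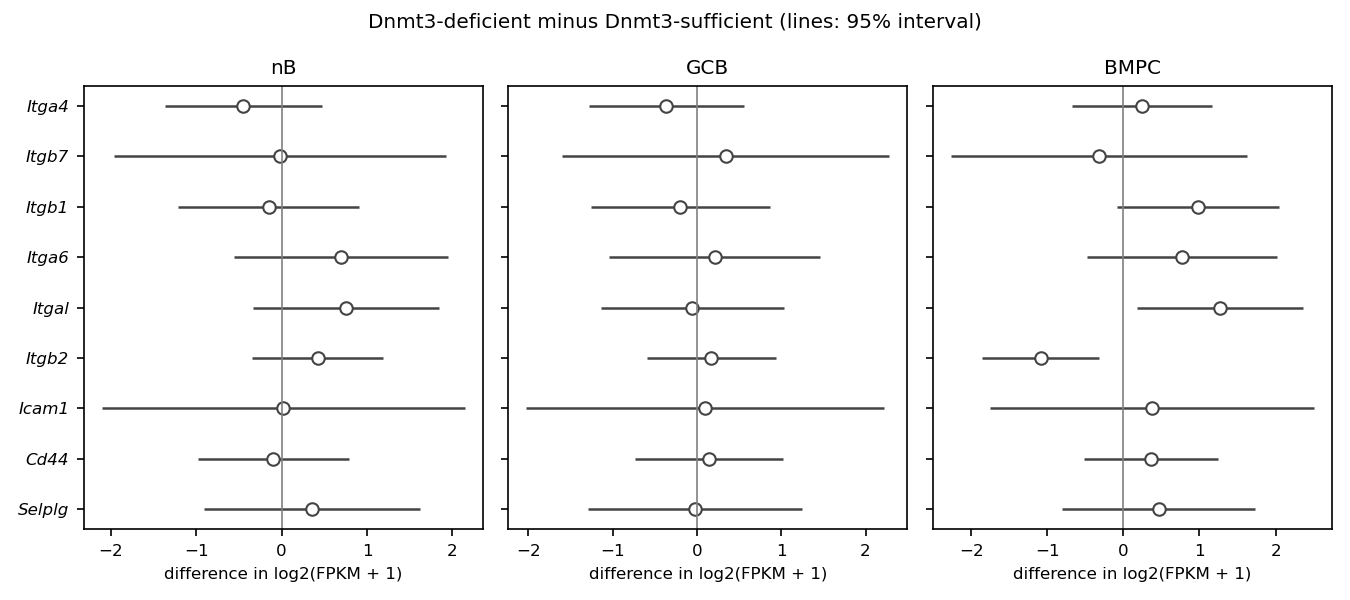
Difference of Dnmt3-deficient from Dnmt3-sufficient libraries for each gene, on the log2(FPKM + 1) scale with 95% intervals, in nB, GCB and BMPC (3 against 3 libraries each). No gene passed the test, and in BMPC the intervals of Itgb2 and Itgal exclude 0.

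The change between cell types was also tested for a difference between the genotypes. None of the 9 genes passed for GCB against nB, where 0% of all genes did (0 genes, 204 at an unadjusted p under 0.05), for BMPC against nB (0.555%) or for BMPC against GCB (0.425%). With voom 0 of the 9 passed as well, and at an unadjusted p under 0.05 there was Itgb2 alone, in the last 2 of these. The lowest adjusted p of the 9 was for Itgb2 in BMPC against nB, at -1.50 ± 0.51 (adjusted p = 0.262). In BMPC the summed plasma cell markers were at 18915 to 29493 FPKM in Dnmt3-sufficient and 33952 to 51504 in Dnmt3-deficient libraries. That sum was mostly Jchain (means of 20649 and 38467 FPKM), and Irf4, another of these markers, was at 45.6 and 14.2. The part of these and the other marker sums in the genotype differences was not tested.

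Other adhesion genes were grouped in lists by function. Of 20 other integrin subunits, 8 were above the filter. None passed in GCB against nB, where 14.2% and 12.9% of all genes did. Itga5 was higher and Itgav lower in Dnmt3-sufficient BMPC than in nB (1.83, adjusted p = 0.00151, and -1.54, adjusted p = 0.0224), beside 37.3% of all genes. Itgb5, the beta 5 chain, was higher in Dnmt3-deficient BMPC than in nB by 3.22 (adjusted p = 1.23e-06), beside 37.4% of all genes. These genes were named after their values were seen. Itgb5 and Itga5 were the members of this list that passed between genotypes in BMPC, beside 3.98% of all genes. Itgb5 lay between 5.97 and 15.5 FPKM (27 to 115 reads) in Dnmt3-deficient and between 0 and 0.168 (at most 2 reads) in Dnmt3-sufficient BMPC (3.15, adjusted p = 2.63e-05), and it had 0 reads in every nB library. Its change from nB to BMPC differed between the genotypes by 3.15 ± 0.45 (adjusted p = 0.0019). Itga5, the chain of the fibronectin receptor, lay between 0 and 0.692 FPKM in Dnmt3-deficient and between 0.996 and 6.89 in Dnmt3-sufficient BMPC (-1.59, adjusted p = 0.0301). Itgb5 and Itga5 each exceeded the filter's FPKM of 1 only in the BMPC genotype where it was high. They entered the tests through that group, so their p-values here add no support beyond the levels. With a fit of only the compared groups no gene of the whole table passed between genotypes in BMPC, these included. The Cd68 and erythroid levels given above did not overlap between the genotypes in BMPC, and their part was not tested.

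Of 25 genes of integrin activation and linkage, 23 were tested. In GCB against nB, 3 were lower and 0 higher in Dnmt3-sufficient cells and 1 lower in Dnmt3-deficient cells, beside 14.2% and 12.9% of all genes. Rasgrp2, the activator of Rap1 upstream of integrin affinity, was lower in both, by 2.68 (adjusted p = 0.00445) and 2.39 (adjusted p = 0.0107) on the log2 scale. In BMPC against nB, 14 were lower and 1 higher in Dnmt3-sufficient and 10 lower and 1 higher in Dnmt3-deficient cells, and 11 passed alike in both. Of all genes 37.3% and 37.4% passed there, most of them lower. Cyth1, a regulator of LFA-1 adhesion, went from 33.3 ± 3.73 FPKM in nB to 2.11 ± 1.22 in BMPC of Dnmt3-sufficient and from 31.7 ± 8.94 to 1.74 ± 1.81 in Dnmt3-deficient mice (n = 3 each). Stk4, the Mst1 kinase, had log2 changes of -2.30 and -2.70 (adjusted p = 4.16e-05 and 9.6e-06), and Rasgrp2 of -2.98 and -2.66 (adjusted p = 0.000826 and 0.00209). Sharpin, an inhibitor of integrin activation, had changes of -3.61 and -3.27 (adjusted p = 0.0134 and 0.0228). Its BMPC libraries were spread widely, at 0, 4.29 and 37.8 FPKM in Dnmt3-sufficient and 0.426, 13.4 and 36.4 in Dnmt3-deficient cells. The lowest of each held 0 and 1 reads. The gene that rose was Rap1a, the small GTPase of inside-out integrin signalling, by 1.604 and 2.33 (adjusted p = 0.00184 and 8.73e-05). The list median was -1.68 and -1.59, beside -0.70 and -0.84 over all genes. That median over all genes depended on the setting. It was -1.31 and -1.59 with a pseudocount of 0.1, and -1.26 and -1.41 with voom. The list was not recomputed in these settings, so the size of its excess is uncertain.

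**Figure D5:**
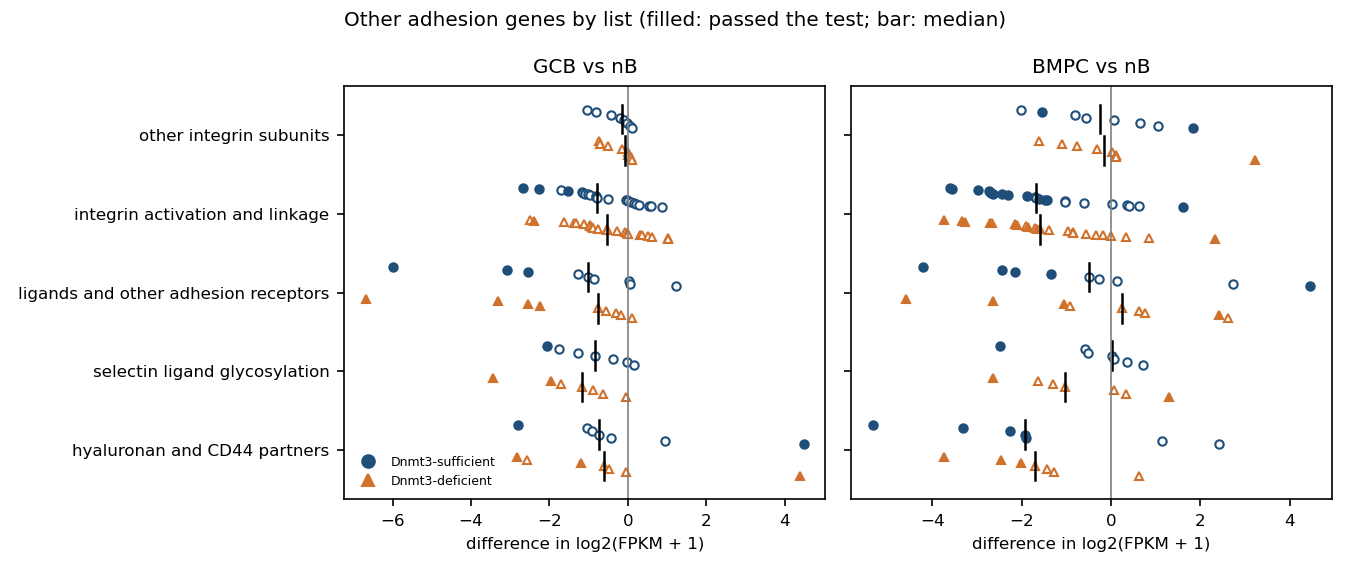
Difference in log2(FPKM + 1) of each tested gene of 5 adhesion lists, GCB against nB (left) and BMPC against nB (right). Circles are Dnmt3-sufficient and triangles Dnmt3-deficient, filled symbols passed the test, and bars are list medians. In the integrin activation list the medians for BMPC are -1.68 and -1.59.

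Among 18 ligands and other adhesion receptors, 9 were tested. In GCB against nB, 3 and 4 were lower and 0 higher, beside 14.2% and 12.9% of all genes, with Pecam1 and Cd47 among those lower in both genotypes. Pecam1, an endothelial and leukocyte adhesion molecule, fell by 3.09 (adjusted p = 0.00496) and 3.31 (adjusted p = 0.00324), and Cd47 by 2.53 (adjusted p = 3.14e-05) and 2.24 (adjusted p = 0.000117). Cd47, a binding partner of SIRP alpha, was 12.2 ± 2.43 FPKM in Dnmt3-sufficient GCB, 74.4 ± 3.05 in nB and 84.5 ± 26.4 in BMPC. In BMPC against nB, 4 and 3 were lower and 1 higher, beside 37.3% and 37.4% of all genes. The gene that was higher was the tetraspanin Cd9, by 4.46 (adjusted p = 0.000414) and 2.42 (adjusted p = 0.0253), and Icam2, another LFA-1 ligand, fell by 2.14 (adjusted p = 0.000241) and 1.05 (adjusted p = 0.0311).

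Of 9 enzymes of selectin ligand glycosylation 7 were tested. B4galt1, a galactosyltransferase, was lower in GCB than in nB by 2.06 (adjusted p = 0.000964) and 1.96 (adjusted p = 0.00161). It was the only gene of the list to pass in both genotypes. Tpst2, which sulfates tyrosines, fell in Dnmt3-deficient GCB (-3.43, adjusted p = 0.00353) and was at -1.74 in Dnmt3-sufficient GCB (adjusted p = 0.126), and these were not shown to differ (-1.68 ± 1.02, adjusted p = 1). The counts were 1 of 7 and 2 of 7, beside 14.2% and 12.9% of all genes. In BMPC against nB, Gcnt1 was lower in Dnmt3-sufficient cells (-2.47, adjusted p = 0.0259). St3gal6 was lower (-2.64, adjusted p = 0.0172) and B4galt1 higher (1.31, adjusted p = 0.0114) in Dnmt3-deficient cells. So 1 and 2 of 7 passed beside 37.3% and 37.4% of all genes. The Gcnt1 and St3gal6 calls rested on libraries without reads. Gcnt1 was at 0, 0 and 9.23 FPKM in Dnmt3-sufficient BMPC, beside 8.69 to 15.2 in nB. St3gal6 was at 0, 4.87 and 34.3 FPKM in Dnmt3-deficient BMPC, beside 27.6 to 43.8 in nB.

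Of 11 genes of hyaluronan and CD44 partners 7 were tested. Hmmr, a hyaluronan receptor that is also a mitotic spindle gene, rose in GCB by 4.48 (adjusted p = 0.00205) and 4.40 (adjusted p = 0.00257). In GCB against nB, 1 was higher in each genotype, and 1 and 2 were lower, beside 14.2% and 12.9% of all genes. In BMPC against nB, 5 were lower in Dnmt3-sufficient and 3 in Dnmt3-deficient cells and 0 higher, beside 37.3% and 37.4% of all genes. Moesin (Msn) was 341 ± 12.5 FPKM in nB and 12.7 ± 10.5 in BMPC of Dnmt3-sufficient mice, and 349 ± 28.9 and 25.6 ± 4.89 in Dnmt3-deficient mice (adjusted p = 7.63e-06 and 0.000263). Ezrin (Ezr) fell by 3.32 (adjusted p = 8.39e-07) and 2.46 (adjusted p = 2.02e-05), and the hyaluronidase Hyal1 had no read in any of 6 BMPC libraries. Radixin (Rdx) was lower in GCB in both genotypes, by 2.80 (adjusted p = 0.0320) and 2.83 (adjusted p = 0.0318). In BMPC, Rdx differed from nB by -2.26 (adjusted p = 0.0429) and -1.28 (adjusted p = 0.239).

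Outside the lists, the genes whose levels followed each member most closely over 18 libraries were found by Pearson r on the log2 scale. For Selplg they were Cdkn1b (0.96) and S100a6 (0.95), for Itgb7 Glmp (0.94) and Dip2b (0.90), for Itga4 Shisa5 (0.94) and Notch2 (0.93) and for Icam1 Prr13 (0.94) and Ints7 (0.93). Cd44 was followed by Slpi (0.91) and Nans (0.90), Itgb2 by Dnttip2 (0.90), Itgb1 by Eif4e (0.88) and Srgn (0.85) and Itgal by Myadm and Fam120b (both 0.84). For Itga6 the value was 0.90 with 6230400D17Rik. Libraries of a cell type share tissue and depth, so these values describe patterns over cell types.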

How the data were processed

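RNA of 18 sorted samples was amplified by PCR and sequenced as read pairs. The authors mapped reads to mm9 with Tophat, keeping single hits, and counted them over exons of UCSC KnownGenes in R. In the deposited table the authors scaled these counts to FPKM, by exon length and by the total over genes of the library. The submitters' processing notes name Picard, R 3.2.2 and edgeR 3.12.1. Strand was not stated for counting, so overlapping and antisense genes are uncertain. Columns of the authors' own fold changes, p-values and FDR were not used. Genes without a symbol (92 of 21761) stayed in the fits. Immunoglobulin genes were not analysed here.

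Every value (100% in each library, tolerance 0.01) was a whole multiple of the value of 1 read, so reads were recovered. No 2 libraries of a group were alike within sampling noise. Depth, given in the report, was lowest in BMPC. Amplified reads have no molecular identifiers, so the limit of 3 reads set by a count of 0 covers counting error only.

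limma 3.58.1 (R 4.3.3) was fitted to log2(FPKM + 1) of all 18 libraries with a mean per group and an intensity trend, over genes that exceeded an FPKM of 1 in 2 or more libraries. Adjusted p-values are Benjamini-Hochberg over these genes and two-sided, and changes on this scale understate those of low genes. Ratios were tested by exact permutation (Python 3.11.15). The step was tested on simulated data. Changes and counts of the 9 genes were recomputed without the filter, with a stricter one (FPKM over 3 in 3 or more libraries), a pseudocount of 0.1, sex as a covariate, scaling by the median of ratios, quality weights, voom on recovered reads, a fit of the compared groups, a replicate block in GCB and each library left out. Ratios were recomputed with that pseudocount, from recovered reads and with each library left out, and genes of the other lists had no alternatives. Named were all members, per list up to 4 genes with the largest change that passed in both genotypes, and 2 genes most like each member, and some of these genes are not reported here. Members and lists were chosen with earlier results of these data known. Libraries within a group are from separate mice or pools, and the sources used here do not tie libraries to experiments.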

Additional observations from a re-analysis of the deposited data

How the results depend on the processing

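Direction was kept for each call of a single gene under all alternatives. Calls no longer passed in 22 fits with 1 library left out (302 still passed) and in 18 of the other fits (126 still passed). Most fits that left out 1 library took it from outside the groups compared. There the log2 change cannot move, and only the shared spread does. Counts of genes that passed were kept within 1.5 times in most settings. For GCB against nB in Dnmt3-deficient cells the count was 5 rather than 3 with quality weights, with voom and with a fit of only the groups compared, where Itgal and Cd44 were added. For BMPC against nB in Dnmt3-sufficient cells it was 1 with the last of these. For BMPC against GCB it was 1 in Dnmt3-sufficient cells with a pseudocount of 0.1, no filter, median of ratios scaling, sex as a covariate and the fit of the groups compared, Icam1 being lost. In Dnmt3-deficient cells it was 5 with median of ratios scaling, which moved the median of all genes by 0.16 in that comparison and by 0.14 in BMPC against nB. A pseudocount of 0.1 and voom moved that median further, as given above for BMPC against nB. Leaving out each library gave 1 to 3 and 3 to 5 genes for BMPC against GCB in Dnmt3-sufficient and Dnmt3-deficient cells, 3 to 4 and 2 to 4 for GCB against nB, 2 to 4 and 3 to 4 for BMPC against nB, and 0 to 1 between genotypes in BMPC. The cause of these shifts was not tested. The log2 ratio differences without 1 library ran from -0.77 to 0.21 for Itgb1 to Itgb7 in BMPC against GCB and from -0.39 to 0.24 for Itga4 to Itgal in BMPC against nB, neither of which passed in any setting. The other 4 ratio differences kept their direction and their call. GCB libraries of both genotypes share sample numbers, but same-numbered libraries did not deviate together (r of -8.06e-05, -0.02 and 0.03), and with the replicate block 0 of the 9 genes passed between genotypes, as without it. The lowest Itga6, Itgb7, Icam1 and Selplg libraries rest on 0 to 4 reads. Those of Itgb7 and Icam1 were BMPC libraries, the shallowest cell type. Those of Selplg were GCB libraries of 7644544 and 8824079 reads, and the other GCB libraries held 64 to 80 Selplg reads. Itga6 had 0 reads in BMPC libraries and also in nB Dnmt3-sufficient replicate 2, which held 7649909 reads. The part of depth in these values was not tested.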
